A study of Mus musculus with 3 samples.

Results

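Transcripts of 9 immune checkpoint and costimulatory genes (Pdcd1, Lag3, Tigit, Havcr2, Cd274, Pdcd1lg2, Vsir, Cd80 and Cd86) were followed through the immune cells of the healthy mouse kidney. They were chosen by name from the 32886 genes of the deposited count table. The cells came from wild-type male C57BL/6J mice aged 10 weeks that received no treatment. Each kidney was cut into its cortex and the outer (OM) and inner (IM) parts of the medulla, living CD45+ cells were sorted, and single-cell RNA sequencing was done on a droplet platform of 10x Genomics. Each compartment was sampled in 3 datasets, named Aachen, Bonn and Hamburg after their sites, which gave 9 libraries and 20266 cells in 23 clusters named by the authors. The datasets served as replicates. How many mice stand behind a library is not given in the sources used here. With the dataset as block, p-values measure how far compartment differences vary between datasets, and that variation may be technical.

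Checkpoint receptors restrain lymphocytes that have met their antigen. PD-1 (Pdcd1), LAG-3 (Lag3), TIGIT (Tigit) and TIM-3 (Havcr2) are receptors of this kind, and TIM-3 is also carried by myeloid cells. PD-L1 (Cd274) and PD-L2 (Pdcd1lg2) are the ligands of PD-1. VISTA (Vsir) is an inhibitory B7-type molecule of myeloid cells and T cells, whereas CD80 and CD86 on antigen-presenting cells engage CD28, which promotes T cell activation, or CTLA-4, which restrains it.

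Libraries held 621 to 3677 cells. The median number of unique molecular identifiers (UMIs, counted transcripts) per cell was 744 to 1270 in the Aachen libraries, 3209.5 to 3505 in the Bonn libraries and 2802 to 3067 in the Hamburg libraries. Ptprc, which encodes CD45, was detected in 25.7 to 44.9% of cells in the Aachen libraries and in 82.6 to 88.9% in the others. Of all barcode sequences, 219 (1.09%) occurred in more than 1 library. Levels are given in CPM, the UMIs of a gene in every 1000000 UMIs of a cluster, as mean ± SD of the datasets with at least 10 cells of it, and are compared between cell types and not between genes. A cluster sum cannot tell fewer expressing cells from less RNA per cell.

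The members were sparse. UMIs were found in 1.85% of cells for Cd80, 3.04% for Lag3, 3.53% for Pdcd1, 4.22% for Pdcd1lg2, 4.85% for Tigit, 5.83% for Havcr2, 6.59% for Cd274, 16.9% for Cd86 and 30.1% for Vsir. Detection differed between datasets for some members more than for others. Tigit had 9 UMIs in all 7147 Aachen cells, 1.11 CPM, against 13.1 CPM in Bonn and 51.1 CPM in Hamburg. Cd274 was at 8.54, 17.2 and 52.2 CPM in Aachen, Bonn and Hamburg, whereas Vsir was at 205, 174 and 167 CPM. Differences between datasets were not tested.

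Cd274 and Pdcd1lg2, the ligand genes of PD-1, lie side by side on the plus strand of chromosome 19, 22823 bases apart (GENCODE M21, GRCm38). Their promoters are shown because these neighbours had different patterns over the clusters, beside those of their receptor gene and of Havcr2, the receptor gene with a myeloid pattern. Each window runs from 100 bases before to 30 bases after the RefSeq transcription start (GRCm38.p6), is written 5′ to 3′ on the strand of the gene and reaches into the first exon.
Pdcd1, chr1:94052524-94052653, minus strand: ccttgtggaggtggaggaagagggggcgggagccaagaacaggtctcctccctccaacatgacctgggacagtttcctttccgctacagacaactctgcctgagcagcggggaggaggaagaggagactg
Cd274, chr19:29367338-29367467, plus strand: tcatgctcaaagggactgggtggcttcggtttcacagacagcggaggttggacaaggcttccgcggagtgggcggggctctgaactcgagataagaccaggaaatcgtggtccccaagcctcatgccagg
Pdcd1lg2, chr19:29410819-29410948, plus strand: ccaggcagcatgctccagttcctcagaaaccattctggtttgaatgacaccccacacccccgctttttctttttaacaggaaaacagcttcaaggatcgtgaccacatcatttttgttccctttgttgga
Havcr2, chr11:46454831-46454960, plus strand: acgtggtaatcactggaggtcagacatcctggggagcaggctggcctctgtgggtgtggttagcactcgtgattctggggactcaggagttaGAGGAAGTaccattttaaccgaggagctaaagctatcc
Capitals in Havcr2 mark GAGGAAGT, a motif of the PU.1 type, which began 8 bases before the start. RefSeq promoters of 300 bases were at hand for 7 of the 9 members (none for Lag3 and Cd86), and they were searched on both strands for GAGGAAGT, for an interferon-type (IRF) motif and for an NF-kB motif. The Havcr2 promoter was the 1 of 7 with a match. Among all 32851 promoters, 3.20% held the first motif, 3.44% the second and 0.155% the third. A match is a run of letters and not a binding site.

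The other genes lie on chromosome 1 (Pdcd1, 94038305-94052553, minus strand), chromosome 6 (Lag3, 124904361-124911705, minus), chromosome 10 (Vsir, 60346851-60372684, plus), chromosome 11 (Havcr2, 46454935-46481255, plus) and chromosome 16 (Cd86, 36603869-36666081, minus; Cd80, 38455561-38496335, plus; Tigit, 43648867-43664146, minus). Cd274 spans 29367455-29388095 and Pdcd1lg2 29410919-29471161 on chromosome 19.

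Over the 23 clusters the members had different patterns, also among members with the same role. Pdcd1 and Tigit were highest in T cell clusters, Lag3 in plasmacytoid dendritic cells (pDC) and T_cell_2, Havcr2 in conventional dendritic cells and other myeloid cells, Vsir and Cd86 in macrophages, and Cd80 in neutrophils and cDC2. The ligands of PD-1 were spread over B cells, T cells and NK cells as well. Clusters had been drawn by the authors from the same counts, so these levels are a description with no test. Neighbours in the order of clusters are said to differ beyond their spread where every dataset shows the same sign and the mean difference exceeds its SD. Of 22 neighbouring pairs for each member, this held for 1 with Pdcd1, Havcr2 and Pdcd1lg2, 2 with Lag3, 3 with Tigit and Cd80, 4 with Cd274 and Cd86, and 5 with Vsir.

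**Figure D1:**
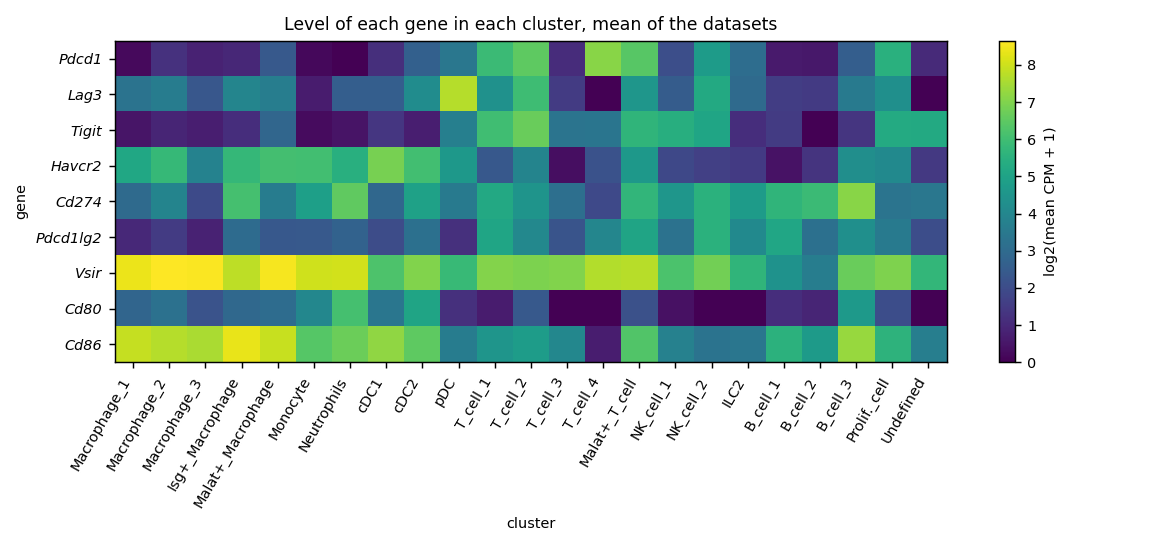
Heat map of log2(mean CPM + 1) for the 9 genes (rows) in the 23 clusters (columns), where the mean is taken over the datasets. Vsir and Cd86 are bright over the macrophage columns, Pdcd1 and Tigit over T cell columns, and Lag3 is brightest in pDC, at 205 CPM.

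Pdcd1, the PD-1 gene, reached 137 ± 19.2 CPM in T_cell_4 (n = 3), with 154 in Aachen, 116 in Bonn and 142 in Hamburg. T_cell_4 held 161 cells and 7.52% of the Pdcd1 UMIs (here and for other members, shares of UMIs are means over the datasets). Its T cell markers summed to 47.5 UMIs per 10000, its CD8 markers to 0.249 and its CD4 marker to 0.253. The γδ T cell markers Trdc and Tcrg-C1 summed to 4.17 there, the highest of the T cell clusters. Its ILC2 markers summed to 5.16 and its regulatory T cell markers to 2.38, against 3.25 and 1.47 in T_cell_1. T_cell_2, in which Cd8a and Cd8b1 summed to 18.3 UMIs per 10000, had Pdcd1 at 37.6, 131 and 99.7 CPM in Aachen, Bonn and Hamburg, 89.5 ± 47.7 on average. T_cell_1, where these CD8 markers were at 0.932 and Cd4 at 1.84, had 35.8, 63.4 and 77.6 CPM, 58.9 ± 21.2 on average. Malat+_T_cell stood between T_cell_2 and T_cell_1 on average, at 151, 120 and 232 CPM in cortex, OM and IM of Hamburg and 0 in Aachen. The values of these clusters overlapped between datasets, and no step in this order was beyond its spread. T_cell_1 and T_cell_2 held 35.1% and 37.5% of Pdcd1 UMIs with 11.8% and 8.14% of the cells.

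In T_cell_3, Pdcd1 was at 1.12 ± 1.02 CPM, below T_cell_1, T_cell_2 and T_cell_4 in every dataset. T_cell_3 had the same T cell markers at 31.8 UMIs per 10000. NK_cell_2 had 14.6, 22.7 and 41.0 CPM of Pdcd1, 26.1 ± 13.5 on average, and NK_cell_1 had 3.19 ± 3.26. NK_cell_2 was also set apart from NK_cell_1 by its NK markers, at 24.3 against 140.0 UMIs per 10000. Neutrophils held 0 Pdcd1 UMIs in 273 cells, which allows up to 3.19 CPM.

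With each cell thinned to 500 UMIs, 4.09% of T_cell_2 cells had a Pdcd1 UMI (95% Wilson interval 3.23 to 5.17%, median depth 2550 UMIs before thinning). The share was 2.84% in T_cell_1 (2.23 to 3.6%) and 3.80% in T_cell_4 (1.75 to 8.04%). T_cell_3 had 0 of 1023 cells, which allows a share of up to 0.293%. In B_cell_1, a cell type with little Pdcd1, 1 of 3574 cells had one (0.0280%, median depth 2452 UMIs). Intervals and limits cover counting error only. Thinning left out 814 cells with under 500 UMIs, 810 of them from Aachen. Without thinning, the mean share over datasets in T_cell_4 was 22.1% in place of 4.04%.

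Lag3, which encodes a receptor that binds MHC class II, was highest in pDC, at 186 CPM in Bonn and 224 in Hamburg, 205 ± 27.2 on average (n = 2, as Aachen held 9 such cells). The pDC markers Siglech, Ccr9 and Bst2 summed to 71.0 UMIs per 10000 in that cluster. T_cell_2 followed with 83.2, 57.7 and 43.9 CPM in Aachen, Bonn and Hamburg, 61.6 ± 19.9 on average. The difference between pDC and T_cell_2 was 154 ± 36.9 CPM over the 2 datasets that have both, beyond its spread. pDC made up 0.503% of the cells and 13.6% of Lag3 UMIs, and T_cell_2 held 31.9% of them. NK_cell_2 had 37.4 ± 11.1 CPM against 4.66 ± 2.73 in NK_cell_1. T_cell_4, the cluster with the highest mean Pdcd1, had 0 Lag3 UMIs in 161 cells, which allows up to 5.09 CPM.

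Tigit, the gene of a receptor for nectin-type ligands, was highest in T_cell_2, at 8.05, 110.1 and 187 CPM in Aachen, Bonn and Hamburg. T_cell_1 had 1.33, 46.8 and 141 CPM. T_cell_2 was above T_cell_1 in every dataset, by 38.8 ± 29.0 CPM, beyond the spread. In NK_cell_1 Tigit was at 0 CPM in Aachen, 19.9 in Bonn and 105 in Hamburg, and in NK_cell_2 at 0, 22.7 and 76.7. The Aachen values of each of these clusters lie below those of the other datasets, so the averages rest on Bonn and Hamburg. B_cell_2 held 0 Tigit UMIs in 352 cells, which allows up to 3.06 CPM.

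**Figure D2:**
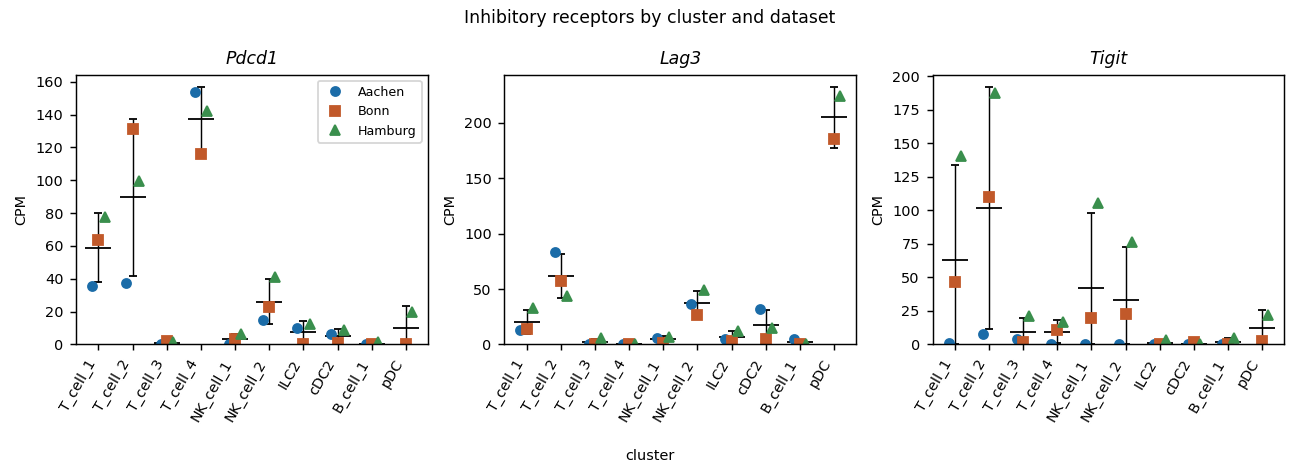
CPM of Pdcd1, Lag3 and Tigit (y axes) in 10 clusters (x axes). Symbols are datasets, the black dash is their mean and the bar 1 SD; Pdcd1 in T_cell_4 sits between 116 and 154 CPM, and the Aachen circles of Tigit lie near 0.

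Receptor transcripts were rarely seen together in single cells at this depth. In T_cell_2 thinned to 500 UMIs, Tigit was detected in 12 of 66 cells with a Pdcd1 UMI (18.2%) and in 5.10% of the cells without. By dataset, cells with both numbered 0 of 9 in Aachen, 3 of 24 in Bonn and 9 of 33 in Hamburg. In T_cell_1, Tigit was found in 0 of 9 cells with Pdcd1 in Aachen, 2 of 26 in Bonn (7.69%, against 2.15% of the rest) and 2 of 30 in Hamburg (6.67%, against 6.40% of the rest). Of 46 T_cell_2 cells with a Lag3 UMI, 1 had Tigit (2.17%), against 5.74% of the rest. In Aachen, where Tigit was hardly detected, these were 0 of 23, against 0.366% of the rest. In Bonn they were 0 of 10 (6.84% of the rest) and in Hamburg 1 of 13 (7.69%, against 9.73% of the rest). These are descriptions of sparse counts with no test.

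Havcr2, the TIM-3 gene, had its highest level in cDC1, the conventional dendritic cells that cross-present antigen. Its level there was 43.6, 147 and 157 CPM in Aachen, Bonn and Hamburg, 116 ± 62.8 on average. That was above the next cluster, Malat+_Macrophage (66.0 ± 58.1), in every dataset, by 49.9 ± 33.2 CPM. Monocytes had 64.9 ± 42.8, cDC2 64.8 ± 57.9, Macrophage_2 54.8 ± 21.3, Isg+_Macrophage 53.1 ± 22.7, Macrophage_1 34.8 ± 27.2 and Macrophage_3 13.2 ± 8.39 CPM. Among T cells, T_cell_2 had 13.8 ± 3.68 and T_cell_1 4.24 ± 2.58, and B_cell_1 had 0.355 ± 0.446. Thinned to 500 UMIs, 5.96% of cDC1 cells had a Havcr2 UMI (3.80 to 9.22%, median depth 6469 UMIs), against 0 of 3574 B_cell_1 cells (median depth 2452 UMIs). In these kidneys Havcr2 was thus measured mostly in mononuclear phagocytes, as T_cell_1 and T_cell_2 held 1.88% and 4.83% of its UMIs.

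Cd274, the PD-L1 gene, had no single leading cluster. B_cell_3 averaged 137 CPM but had 16.1 in Bonn (1 UMI in 21 cells) and 259 in Hamburg. Neutrophils had 142 CPM in Aachen, 29.3 in Bonn and 105 in Hamburg, where the Aachen value rests on 2 UMIs. Isg+_Macrophage, named for interferon-stimulated genes, had 39.1, 45.6 and 117 CPM of Cd274 in Aachen, Bonn and Hamburg. Macrophage_1 had 3.14, 4.38 and 13.6 CPM, Macrophage_2 1.02, 8.95 and 32.3, and Macrophage_3 0, 4.35 and 4.17. Isg+_Macrophage was above the other resident macrophage clusters in each dataset. B_cell_1 had 49.3 ± 41.3 CPM and held 27.1% of Cd274 UMIs, and T_cell_1 with 36.0 ± 19.9 CPM held 18%. cDC2 had 30.1 ± 22.2 and cDC1 6.39 ± 4.53 CPM.

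Pdcd1lg2, the PD-L2 gene, was highest in lymphoid clusters. NK_cell_2 had 7.32 CPM in Aachen (1 UMI), 74.2 in Bonn and 53.0 in Hamburg. B_cell_1 had 17.6, 44.8 and 40.0 CPM, 34.1 ± 14.5 on average, and T_cell_1 17.3, 49.4 and 32.9, 33.2 ± 16.1 on average. These 3 clusters did not differ beyond their spread. B_cell_1 and T_cell_1 held 34.2% and 25.9% of Pdcd1lg2 UMIs. In Macrophage_1, Macrophage_2 and Macrophage_3 the mean level was 0.758 to 1.83 CPM, and in cDC2, a cell type known for PD-L2, it was 8.14 ± 4.24 CPM. Thus the neighbouring ligand genes shared B_cell_1, T_cell_1 and NK_cell_2, whereas Isg+_Macrophage had 67.4 ± 43.5 CPM of Cd274 and 7.11 ± 9.94 CPM of Pdcd1lg2.

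Vsir, the VISTA gene, was measured in every cluster. It was highest in Macrophage_2, at 413, 358 and 432 CPM in Aachen, Bonn and Hamburg (401 ± 38.5). Macrophage_3 had 387 ± 81.7, Macrophage_1 335 ± 42.6 and Isg+_Macrophage 222 ± 21.7 CPM. Neutrophils had 266 ± 51.9 and monocytes 259 ± 35.0 CPM. Malat+_T_cell had 204, 148 and 285 CPM in Aachen, Bonn and Hamburg and T_cell_4 205, 183 and 209, a step within its spread. T_cell_1 had 130.5 ± 8.58, T_cell_3 127 ± 11.7 and T_cell_2 124 ± 4.77 CPM, and T_cell_4 exceeded T_cell_1 by 68.3 ± 8.32 CPM. Vsir was lowest in B_cell_1 (20.3 ± 7.14) and B_cell_2 (11.8 ± 5.79), and the step from ILC2 down to B_cell_1 (29.7 ± 22.9 CPM) was beyond its spread. Thinned to 500 UMIs, 17.3% of Macrophage_2 cells (15.5 to 19.2%, median depth 1925 UMIs) and 1.01% of B_cell_1 cells (0.728 to 1.39%, median depth 2452 UMIs) had a Vsir UMI.

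Cd80, a ligand of CD28 and CTLA-4, was highest in neutrophils, at 71.0 CPM in Aachen (1 UMI in 25 cells), 52.8 in Bonn and 77.7 in Hamburg. The neutrophil markers summed to 547 UMIs per 10000 in that cluster. cDC2 had 16.1, 19.96 and 59.7 CPM, below the neutrophils in every dataset, by 35.2 ± 18.6. Monocytes had 14.9 ± 10.1 and cDC1 9.43 ± 8.62 CPM. No Cd80 UMI was found in ILC2, NK_cell_2, T_cell_3, T_cell_4 or the cluster named Undefined, which allows up to 0.776 CPM in T_cell_3, the most deeply covered of them.

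Cd86, the other ligand of CD28 and CTLA-4, was a macrophage transcript in these kidneys. Isg+_Macrophage had 477, 245 and 261 CPM in Aachen, Bonn and Hamburg, 328 ± 129 on average. Macrophage_1 had 236 ± 56.2, Macrophage_2 203 ± 17.6 and Macrophage_3 186 ± 45.1 CPM, and the steps between these macrophage clusters were within their spread. Isg+_Macrophage was above each of them in every dataset. cDC1 had 148 ± 48.0 and cDC2 88.9 ± 35.4 CPM. B_cell_1 had 46.2 ± 18.2 CPM, and T_cell_4 was lowest with 0.630 ± 1.09. Macrophage_1, Macrophage_2 and Macrophage_3 held 25.3%, 18.7% and 10.7% of Cd86 UMIs.

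**Figure D3:**
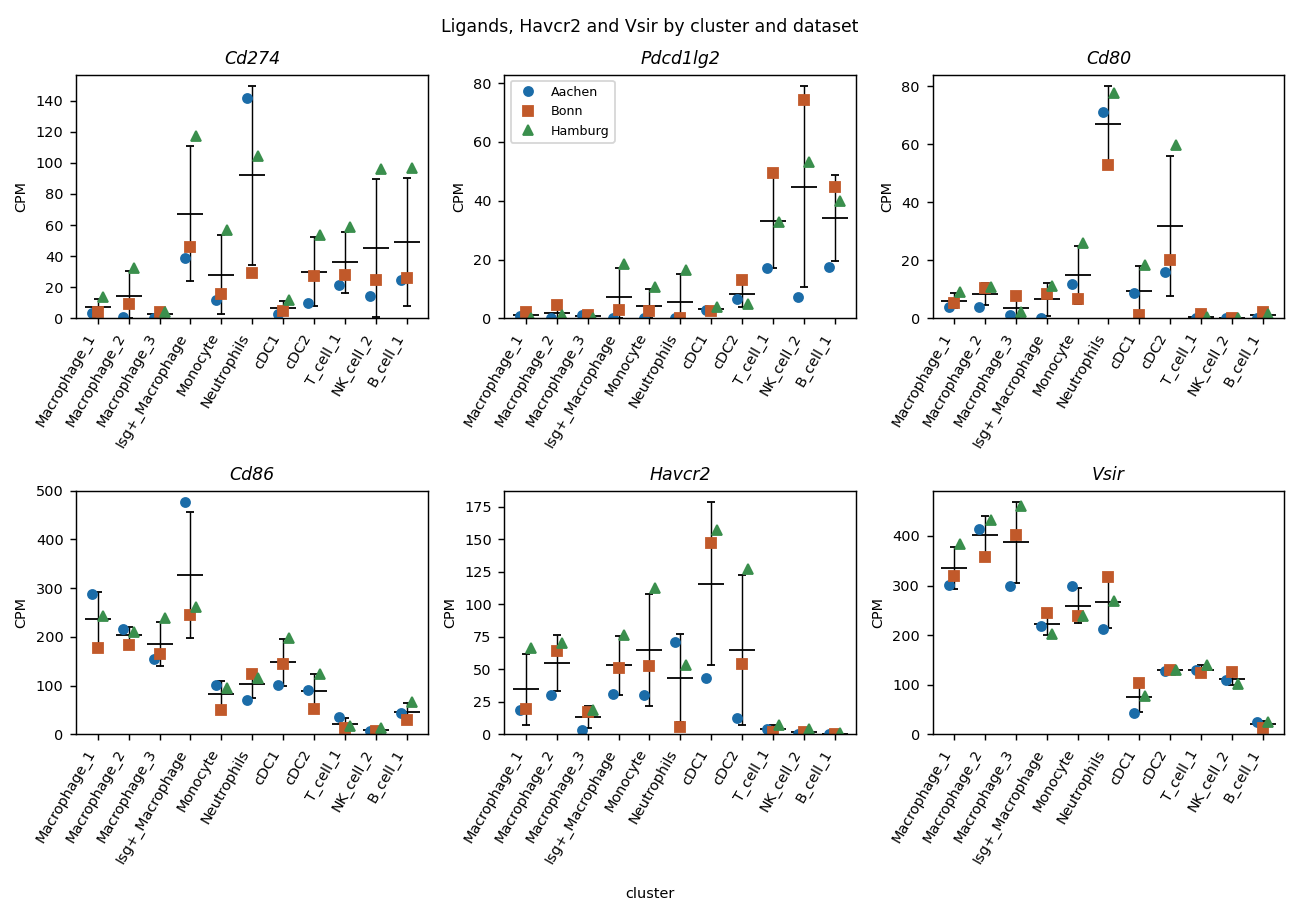
CPM of Cd274, Pdcd1lg2, Cd80, Cd86, Havcr2 and Vsir (y axes) in 11 clusters (x axes). Symbols are datasets, the black dash is their mean and the bar 1 SD, cut at 0; Cd274 in Isg+_Macrophage is above Macrophage_1, Macrophage_2 and Macrophage_3 in each dataset, and Pdcd1lg2 is highest in NK_cell_2, T_cell_1 and B_cell_1.

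The genes most like each member were sought among 7655 genes with at least 50 UMIs in each dataset, by Pearson's r of log2(CPM + 1) over the 23 clusters. These correlations are descriptions, since all genes share the same clusters and libraries. Pdcd1 was most like Cxcr6 (r = 0.897), the gene of a chemokine receptor of tissue T cells, then F2r (0.859) and Cd226 (0.858), whose product competes with TIGIT for ligands. Tigit was most like Cd28 (0.914), Rgs16 (0.885) and Ctsw (0.883). Havcr2 was most like Cd68 (0.894), a lysosomal protein gene of phagocytes, Tgfbi (0.884) and Sowahc (0.883). Cd86 was most like Fcgr2b (0.912), the gene of an inhibitory Fc receptor, and the MHC class II genes H2-Ab1 (0.898) and H2-Eb1 (0.897). Vsir was most like Itgb5 (0.852), Tnfrsf1a (0.850) and Fcgr3 (0.849), and Cd80 most like Mcl1 (0.859), Snx20 (0.840) and Guca1a (0.838). Pdcd1lg2 was most like Traf3ip2 (0.870), Rhof (0.838) and Gimap3 (0.833). The likeness was lower for Lag3 (Cd200r1 0.765, Sirt3 0.753, Otud6b 0.735) and Cd274 (Max 0.756, Ccdc71l 0.727, Helz2 0.724). In at least 1 dataset r was lower for each of these genes, and the order of genes changed. Cd28 with Tigit had 0.553 in Aachen, and Cxcr6 was in place 33 for Pdcd1 in Bonn (0.774). Fcgr2b was in place 49 for Cd86 in Bonn (0.831), whereas Tnfrsf1a had a higher r with Vsir there (0.921). For Lag3, Otud6b had r = -0.0791 and Sirt3 0.117 in Bonn, and for Cd274, Max had 0.291 in Hamburg. Among the members themselves, Pdcd1 and Tigit (0.761), Havcr2 and Cd80 (0.758), Havcr2 and Cd86 (0.737) and Cd80 and Cd86 (0.733) had the highest r, and Cd274 with Pdcd1lg2 had 0.434.

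Whether the members differed between compartments was asked by comparing the medulla (mean of OM and IM) with the cortex in 5 cell classes, over library sums. No member passed an adjusted p of 0.05 in any class, neither with edgeR's quasi-likelihood test, which used the dataset as block and adjusted over all genes, nor with DESeq2. With edgeR, 5 members were tested in resident macrophages, where 1.23% of all genes were called, 8 in T cells (0.0117%), 4 in B cells (0.0353%), 5 in conventional dendritic cells (cDCs, 1.88%) and 2 in NK cells (0.0%). An unadjusted p under 0.05 was reached by 2 members in resident macrophages, 2 in T cells, 3 in cDCs and 0 in B cells and NK cells. With DESeq2 these numbers were 2, 1, 0, 0 and 0, and 2 members in cDCs had no adjusted p.

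In OM against cortex, 0 members were called in resident macrophages (background 0.826%), T cells (0.0235%) and cDCs (1.11%), and 2, 0 and 1 had an unadjusted p under 0.05. In IM against cortex, 0 were called in resident macrophages (background 0.0851%), T cells (0.0235%) and cDCs (1.02%), and 1, 3 and 3 had an unadjusted p under 0.05. DESeq2 called 0 members in these contrasts too, with 2, 0 and 0 at an unadjusted p under 0.05 in OM and 1, 2 and 1 in IM.

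**Figure D4:**
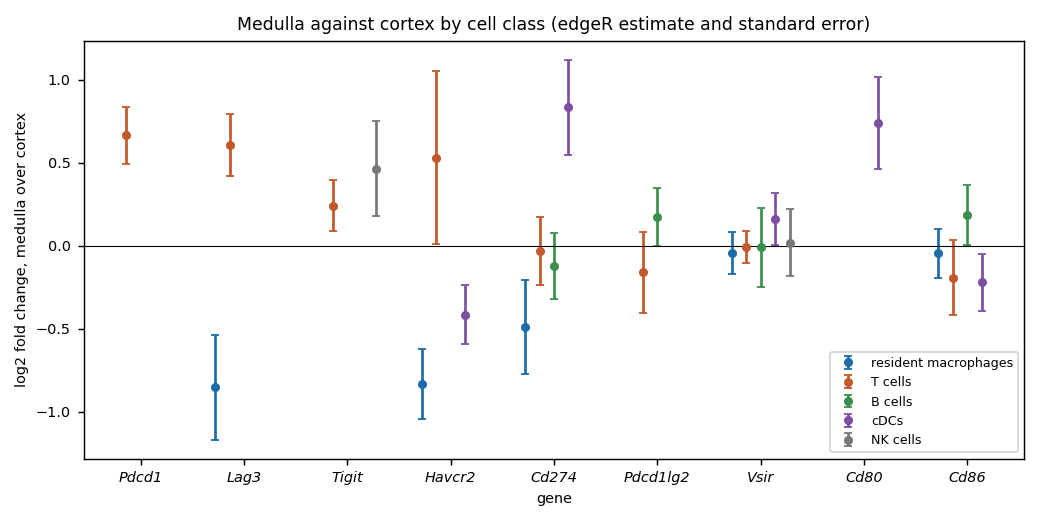
Log2 fold change of medulla over cortex (y axis) with its standard error from edgeR for each gene tested (x axis) in each class (colours). Pdcd1 and Lag3 lie above 0 in T cells, and Havcr2 and Lag3 below 0 in resident macrophages, but none was called after adjustment.

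In T cells as a class, Pdcd1 was at 43.1, 55.2 and 46.8 CPM in the cortex of Aachen, Bonn and Hamburg. It was at 14.3, 91.3 and 69.9 in OM and at 40.3, 105 and 93.7 in IM. The medullary values were above the cortex in Bonn and Hamburg and not in Aachen. The log2 fold change of medulla over cortex was 0.66 (SE 0.17, edgeR adjusted p = 0.379). Lag3 had 31.9, 17.6 and 21.2 CPM in cortex, 45.1, 29.7 and 21.5 in OM and 41.4, 32.3 and 40.4 in IM. All 6 medullary values of Lag3 were above the cortex of their own dataset, with a log2 fold change of 0.60 (SE 0.19, edgeR adjusted p = 0.587). In IM alone the log2 fold changes were 0.87 for Pdcd1, 0.82 for Lag3 and 0.64 for Tigit (edgeR adjusted p = 0.252, 0.298 and 0.363). Vsir in T cells ranged from 118 to 146 CPM over the 9 libraries and its compartments overlapped. The make-up of this class varied by compartment. T_cell_2, with the most Lag3 of the T cell clusters, was 28.9 ± 7.19% of it in cortex. It was 36.5 ± 6.61% in OM and 34.8 ± 6.97% in IM. T_cell_1 was 52.6 ± 1.65%, 37.1 ± 6.8% and 41.9 ± 10.2%. Within T_cell_2 the log2 fold change of Lag3 in the medulla was 0.32 (SE 0.22, edgeR adjusted p = 0.999). Within T_cell_1 it was 0.90 (SE 0.38, edgeR adjusted p = 0.679). The part of the make-up was not tested.

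In single clusters, 17 of 23 clusters had enough cells to be fitted, which gave 47 tests of a member in a cluster. Of these, 1 was called for medulla against cortex, where 0.162% of all gene tests in the fitted clusters were called. It was Pdcd1 in T_cell_1, whose own background was 0.192%. For OM against cortex 0 of 47 were called (background 0.128%), and for IM against cortex 1 of 47 (background 0.109%), again Pdcd1 in T_cell_1 (background 0.163%).

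The cortex libraries had 36.1, 52.1 and 39.4 CPM of Pdcd1 in T_cell_1 in Aachen, Bonn and Hamburg. OM had 30.6, 76.5 and 91.9 CPM, and IM 37.5, 105 and 167 CPM. In Bonn and Hamburg the order was cortex, OM, IM, whereas the Aachen values, from 4 to 14 UMIs, overlapped the cortex. The log2 fold change was 1.14 for medulla (SE 0.23, edgeR adjusted p = 0.0493) and 1.44 for IM (SE 0.24, edgeR adjusted p = 0.0169). The medulla call rested on Hamburg and on the model, because without Hamburg the log2 fold change was 0.62 (adjusted p = 1.0), and DESeq2 gave a log2 fold change of 1.003 (adjusted p = 0.719). It was also lost without the dataset block (0.96, adjusted p = 1), with cells thinned to 500 UMIs (1.59, adjusted p = 0.375) and without cells that carried markers of another lineage (1.04, adjusted p = 0.125). The IM call held without those cells (1.43, adjusted p = 0.0376), and it was lost in DESeq2 (1.27, adjusted p = 0.745), without Hamburg (0.80, adjusted p = 1.0), without the block (1.24, adjusted p = 1) and in thinned cells (1.79, adjusted p = 0.672).

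In Bonn and Hamburg, markers of regulatory T cells and Cd4 within T_cell_1 rose from cortex to OM to IM, as Pdcd1 did. In Aachen they did not. Foxp3, Il2ra and Ikzf2, markers of regulatory T cells, summed to 1.60, 2.96 and 3.85 UMIs per 10000 in cortex, OM and IM of Bonn and to 0.585, 1.09 and 1.54 in Hamburg. In Aachen they were at 1.32, 2.37 and 1.15. Cd4 was at 1.46, 1.58 and 2.12 in Bonn, 2.0, 2.71 and 2.96 in Hamburg and 0.961, 0.766 and 0.670 in Aachen. Their part in the result was not tested. Resident macrophage markers were at 10.8 to 25.9 UMIs per 10000 in the Aachen libraries of T_cell_1 and at 0.568 to 1.27 in the others. Neutrophil markers reached 4.02 in IM of Hamburg against 0 to 0.120 elsewhere. The part of these markers of other lineages in the result was not tested either.

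The other receptors in T_cell_1 were not called. Lag3 had 4.01, 13.98 and 17.8 CPM in the cortex of Aachen, Bonn and Hamburg, 30.6, 10.2 and 22.0 in OM and 13.4, 15.9 and 79.9 in IM. The Hamburg IM library stood above the other 8. Tigit had 4.01, 37.6 and 115 CPM in cortex, 0, 20.4 and 138 in OM and 0, 95.3 and 211 in IM. For IM the log2 fold change was 1.49 for Lag3 (SE 0.38, edgeR adjusted p = 0.236) and 1.03 for Tigit (SE 0.23, edgeR adjusted p = 0.123). The edgeR adjusted p of Lag3 was 0.0135 without Bonn, a fit that kept the Hamburg IM library. In T_cell_2, Pdcd1 had a log2 fold change of 0.24 in the medulla (SE 0.20, edgeR adjusted p = 0.999), from 59.3, 113 and 89.6 CPM in the cortex of Aachen, Bonn and Hamburg, 10.5, 164 and 84.6 in OM and 39.6, 187 and 118 in IM. Whether the medulla effect differed between T_cell_1 and T_cell_2 was not tested.

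**Figure D5:**
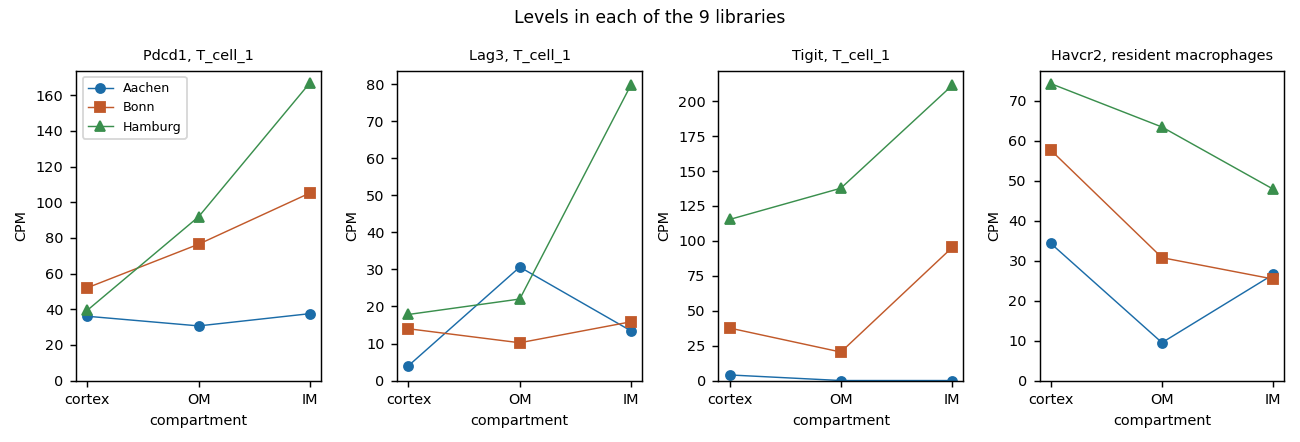
CPM (y axes) of Pdcd1, Lag3 and Tigit in T_cell_1 and of Havcr2 in resident macrophages in cortex, OM and IM (x axes), where each line joins the libraries of 1 dataset. Pdcd1 in T_cell_1 reaches 167 CPM in IM of Hamburg and stays between 30.6 and 37.5 in Aachen, and Havcr2 in resident macrophages is lower in the medulla than in the cortex of each dataset.

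In resident macrophages (Macrophage_1, Macrophage_2, Macrophage_3 and Isg+_Macrophage), Havcr2 was at 34.3, 57.7 and 74.3 CPM in the cortex of Aachen, Bonn and Hamburg. OM had 9.48, 30.7 and 63.4 CPM and IM 26.5, 25.4 and 47.9 CPM, so each medullary value was below the cortex of its dataset. The log2 fold change was -0.83 (SE 0.21, edgeR adjusted p = 0.0761), which missed the threshold. It passed without Aachen (-0.77, adjusted p = 0.0223) and without cells that carried markers of another lineage (-1.02, adjusted p = 0.0273). Lag3 had 18.5, 11.9 and 9.26 CPM in cortex, 5.57, 3.29 and 7.76 in OM and 11.8, 6.68 and 11.9 in IM, with a log2 fold change of -0.85 (SE 0.32, edgeR adjusted p = 0.294).

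The make-up of the class moved with the compartment. Macrophage_3, the resident macrophage cluster with the least Havcr2, made up 2.35 ± 4.07% of the class in cortex, 36.9 ± 12.1% in OM and 19.9 ± 21.3% in IM. Within single clusters the log2 fold change of Havcr2 was -0.59 in Macrophage_1 (SE 0.30, edgeR adjusted p = 0.703) and 0.19 in Macrophage_2 (SE 0.22, edgeR adjusted p = 1.0). Outside the class, Malat+_Macrophage had -1.05 (SE 0.43, edgeR adjusted p = 0.746).

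The transcripts best covered in resident macrophages differed little between compartments. Vsir had 348, 347 and 423 CPM in the cortex of Aachen, Bonn and Hamburg, 314, 414 and 393 in OM and 360, 341 and 339 in IM. Cd86 had 319, 185 and 198 CPM in cortex, 191, 199 and 243 in OM and 277, 171 and 262 in IM. The compartments overlapped for both, and the log2 fold changes of medulla over cortex were -0.04 for Vsir and -0.05 for Cd86 (edgeR adjusted p = 0.977 and 0.981). Cd274 had 5.28, 9.84 and 33.7 CPM in cortex, 1.67, 9.88 and 20.7 in OM and 4.42, 6.41 and 31.6 in IM (log2 fold change -0.49, SE 0.28, edgeR adjusted p = 0.620).

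In cDCs, Cd274 had 7.50, 14.01 and 20.4 CPM in the cortex of Aachen, Bonn and Hamburg, 0, 17.9 and 37.7 in OM and 9.50, 29.1 and 47.6 in IM. IM was above the cortex in each dataset, and OM in Bonn and Hamburg. Cd80 had 7.50, 13.3 and 23.2 CPM in cortex, 11.3, 20.4 and 48.3 in OM and 19.0, 13.7 and 50.8 in IM, above the cortex of the same dataset in all 6 medullary libraries. The log2 fold change of medulla over cortex was 0.83 for Cd274 (SE 0.29, edgeR adjusted p = 0.189) and 0.74 for Cd80 (SE 0.28, edgeR adjusted p = 0.238). Havcr2 had 41.2, 94.4 and 158 CPM in cortex, 28.1, 53.6 and 150.4 in OM and 14.3, 76.5 and 99.8 in IM, with a log2 fold change of -0.42 (SE 0.18, edgeR adjusted p = 0.331).

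Here too the make-up of the class differed, as cDC1 were 54.1 ± 13.0% of cDCs in cortex, 20.7 ± 5.86% in OM and 23.4 ± 12.9% in IM. cDC1 carried more Havcr2 and less Cd274 and Cd80 than cDC2 on average over the datasets. Within cDC2 the log2 fold changes of medulla over cortex were 0.23 for Cd274 (SE 0.36), 0.20 for Cd80 (SE 0.37) and -0.26 for Havcr2 (SE 0.26), with edgeR adjusted p = 0.990, 1.0 and 0.990. Within cDC1 that of Havcr2 was 0.04 (edgeR adjusted p = 1.0).

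In B cells, Pdcd1lg2 had 17.8, 38.2 and 35.9 CPM in the cortex of Aachen, Bonn and Hamburg, 16.4, 55.6 and 36.5 in OM and 14.8, 43.6 and 35.5 in IM. Cd274 had 26.6, 20.5 and 135 CPM in cortex, 16.4, 32.6 and 78.6 in OM and 29.6, 34.4 and 118 in IM. The compartments overlapped, with log2 fold changes of medulla over cortex of 0.17 (SE 0.17) for Pdcd1lg2 and -0.12 (SE 0.20) for Cd274, both at an edgeR adjusted p of 1.0. In NK cells, Tigit was at 0 in the 3 Aachen libraries, at 20.8, 15.7 and 26.2 CPM in cortex, OM and IM of Bonn and at 68.4, 78.9 and 132 in Hamburg (log2 fold change of medulla over cortex 0.46, SE 0.28, edgeR adjusted p = 1.0).

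The share of cells with a UMI, thinned to 500 UMIs, was compared as a check that models no counts. In T cells, 2.10 ± 0.540% of cells in cortex, 2.39 ± 1.83% in OM and 4.12 ± 1.97% in IM had a Pdcd1 UMI (mean ± SD, n = 3 datasets; two-sided exact permutation of compartments inside each dataset, p = 0.296). In resident macrophages, 2.33 ± 0.792%, 1.99 ± 1.43% and 1.55 ± 0.154% had a Havcr2 UMI (exact permutation p = 0.333). No member reached an exact p below 0.111 in any class, where the smallest that 27 arrangements allow is 0.037.

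Whether the medulla effect differed between classes was tested as an interaction. For T cells against resident macrophages, 0 of 9 members were called (background 0.0104% of genes). Lag3 came closest, with a difference of 1.31 in log2 fold change (SE 0.36, edgeR adjusted p = 0.839). For cDCs against resident macrophages, 0 of 6 were called (background 0.222%), and Cd274 had a difference of 1.14 (SE 0.48, edgeR adjusted p = 0.603). In each pair of classes, 1 member had an unadjusted p under 0.05.

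Other genes of these pathways were taken from 7 fixed lists, and their calls for medulla against cortex were counted in each class. In T cells, B cells and NK cells, 0 genes of any list were called. In resident macrophages, 1 of 13 tested other inhibitory receptors and ligands was lower, Pilra (log2 fold change -1.69, SE 0.35, edgeR adjusted p = 0.0307), which encodes an inhibitory receptor of myeloid cells. Pilra was also lower in Macrophage_1 alone (-1.65, SE 0.30, edgeR adjusted p = 0.00404). Of 9 tested genes of chronic stimulation and T cell state, 1 was higher, the transcription factor gene Maf (0.86, SE 0.18, edgeR adjusted p = 0.0284). Within single clusters Maf was not called, with 0.65 in Macrophage_1 (edgeR adjusted p = 0.280), 0.30 in Macrophage_2 and 0.31 in Isg+_Macrophage. None of the 2 other B7-CD28 genes, 6 partners of the members, 3 TNF-family costimulation genes, 8 maturation genes of antigen-presenting cells or 14 interferon gamma response genes tested was called. The medians of these 7 lists ran from -0.34 to 0.73 beside 0.01 over all genes tested. Without the dataset block, 0 of 8228 genes were called in resident macrophages.

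In cDCs, 2 of 15 other inhibitory receptors and ligands were higher in the medulla, Cd72 (log2 fold change 1.06, SE 0.22, edgeR adjusted p = 0.0134) and Sirpa (0.80, SE 0.17, edgeR adjusted p = 0.0162), whose product binds CD47. Of 14 maturation genes, 1 was higher, Il4i1 (1.23, SE 0.22, edgeR adjusted p = 0.00544), an amino acid oxidase gene. Of 14 interferon gamma response genes, Socs3, a feedback inhibitor of cytokine signalling, was higher (1.30, SE 0.24, edgeR adjusted p = 0.00558) and the immunoproteasome gene Psmb9 was lower (-0.54, SE 0.13, edgeR adjusted p = 0.0310). No gene was called among 2 other B7-CD28 genes, 6 partners, 6 TNF-family genes and 7 genes of T cell state. List medians ran from -0.07 to 0.48 beside -0.01 over all genes. Within cDC2 alone the log2 fold changes were 0.27 for Cd72, 0.09 for Sirpa, 0.53 for Il4i1, 0.59 for Socs3 and 0.03 for Psmb9, and none was called. Within cDC1 they were 1.47 for Cd72 (SE 0.67), 1.22 for Socs3 (SE 0.72) and -0.10 for Psmb9 (SE 0.18), again not called, and Il4i1 and Sirpa had no test there. In cDCs as a class, all these calls were lost without Hamburg (0 of 4491 genes called) and without the dataset block (0 of 6757). Many cDCs carried 2 or more UMIs of another lineage's markers, from 29 of 102 in OM of Aachen to 104 of 139 in cortex of Bonn.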

How the data were processed

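Reads had been mapped by the authors with Cell Ranger to mm10, and integrated and clustered with Seurat after removing cells below 200 or above 4000 genes or with over 20% of UMIs from mitochondria (the Cell Ranger version is not given in the sources used here). The deposited table holds expected counts of UMIs that the authors left unscaled. They are whole in Aachen and Bonn, whereas in Hamburg 0.118% of the values above 0 are whole, so Hamburg values were rounded before count tests and thinning. Each compartment of a dataset was summed as 1 library. Barcodes carried 6 suffixes in Aachen (2 for each compartment), 3 in Bonn and 1 in Hamburg, so an Aachen library may pool more than 1 run. Classes were summed per library (at least 10 cells), filtered with filterByExpr, scaled by TMM and tested with edgeR (4.0.16), where datasets entered as blocks and p-values were adjusted over all genes by Benjamini-Hochberg. DESeq2 (1.42.0) was the alternative, and R was 4.3.3. The fits were tested on simulated data.

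That libraries pair by dataset was checked first: centred profiles of the same dataset correlated at 0.664 to 0.921 (9 pairs in each of 5 classes). The interaction had the library as block. SE is the absolute log2 fold change over the root of F. Levels are CPM of the values as deposited. No doublet caller was run, and cells with 2 or more UMIs of another lineage's markers were left out in an alternative. In single clusters, alternatives were chosen after seeing the data.

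All 9 members are named, with the 3 genes most like each, and up to 3 called genes per direction of each pathway list (other B7-CD28 genes, partners of the members, TNF-family costimulation, other inhibitory receptors and ligands, T cell state, antigen-presenting cell maturation and interferon gamma response). The members and the lists were chosen with earlier results of these data known. Hhla2 and Lilrb4 of the lists are not among the gene names used here.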

Additional observations from a re-analysis of the deposited data

How the results depend on the processing

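No class had a member called, and this count became 1 without the filter on low counts in resident macrophages (medulla, OM and IM) and in T cells (medulla), and 3 in T cells for IM. Without cells of mixed lineage it was 1 in resident macrophages. Leaving out 1 dataset at a time gave 0 to 1 in resident macrophages (medulla and IM) and T cells (medulla and IM), where the 1 came from leaving out Aachen. For the medulla, the member was Havcr2 in resident macrophages (unfiltered log2 fold change -0.84, edgeR adjusted p = 0.000199). In T cells it was Pdcd1 (unfiltered 0.61, edgeR adjusted p = 0.00554, and without Aachen 0.81, edgeR adjusted p = 0.0328). The members that passed for OM and IM, among them the 3 in T cells for IM, are not listed here. More genes passed in these settings. Unfiltered fits called 2.3% of all genes (medulla), 1.99% (OM) and 1.68% (IM) in resident macrophages. In T cells they called 0.625% (medulla) and 0.391% (IM). Without Aachen the shares were 2.65% (medulla) and 2.32% (IM) in resident macrophages and 0.0929% in T cells for both. Without cells of mixed lineage 1.33% were called in resident macrophages for the medulla. The 1 call in single clusters became 0 with DESeq2, thinned cells, no mixed-lineage cells or no replicate block, and 0 to 1 over the datasets left out (0 without Hamburg).

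The replicate block follows the pairing by dataset, and fits without it called 0 members in every class. Signs turned only for values that were not called. Without the block, log2 fold changes became 0.0892 for Cd274 and 0.00264 for Vsir in T cells and 0.156 for Vsir in B cells. With DESeq2 these were 0.0867, 0.000844 and 0.0168. Vsir in T cells was 0.000945 with RLE, 0.196 thinned and 0.0305 without mixed-lineage cells. Vsir was 0.0226 thinned in resident macrophages, 0.138 in B cells and -0.00882 in NK cells without mixed-lineage cells, and -0.0423 unfiltered in NK cells. Cd86 in B cells was -0.128 thinned. Over the datasets left out, Vsir ran from -0.148 to 0.0462 in resident macrophages, from -0.0553 to 0.0356 in T cells and from -0.0842 to 0.211 in NK cells, Cd86 from -0.228 to 0.141 in resident macrophages and from -0.0599 to 0.394 in B cells, Cd274 from -0.118 to 0.191 in T cells and from -0.475 to 0.530 in B cells, and Pdcd1lg2 from -0.694 to 0.430 in T cells and from -0.0104 to 0.312 in B cells. The cause was not tested. Of 209 log2 fold changes under alternatives, 24 turned, 171 kept direction and side of the threshold, 5 newly passed it and 9 no longer did. Levels moved by less than 1 SD in 17 of 18 cases, with Cd80 in neutrophils at 93.1 CPM as a mean of compartments. The shares of cells with a UMI moved beyond their spread in 15 of 18 cases, with thinning to 1000 UMIs or none, and the correlations with the most alike gene in 16 of 27 cases within 1 dataset.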
